A study of Homo sapiens with 12 samples.

Results

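The DNAJ genes encode the HSP40 co-chaperones, a family of proteins that carry a J domain. Every gene whose symbol began with DNAJA, DNAJB or DNAJC and a number was taken, pseudogenes and read-through transcripts left out, and read through its brightest probe set with that single symbol. This gave 44 genes of the 18132 measured, 4 of class A, 12 of class B and 28 of class C, and these were all 44 protein-coding DNAJ genes of the RefSeq gene table. RNA came from monolayers of A549, an established human lung adenocarcinoma line with features of alveolar type II cells, grown on uncoated plastic. There were 4 groups of 3 arrays: cells heat shocked for 2 h and then wounded, cells heat shocked for 2 h, cells wounded for 4 h, and untreated control cells. The design text describes the wounding as multiple. All groups were the same single cell line, and no genetic change was made. No source used here gives the heat shock temperature, the time from heat shock to lysis in cells that were not wounded, or the cultures behind replicate arrays. The p-values therefore measure the spread between these arrays, which may be technical.

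A J domain docks on an HSP70 chaperone and speeds its hydrolysis of ATP, which closes HSP70 on a client protein, and nucleotide exchange factors then reopen it. Class A and B proteins also have a glycine- and phenylalanine-rich stretch and bind clients themselves, class A with a zinc-finger-like region that class B lacks. Class C proteins share only the J domain and send HSP70 to particular places, such as the endoplasmic reticulum, the mitochondrial import motor or clathrin coats. After heat stress the transcription factor HSF1 binds heat shock elements, which are inverted repeats of the unit GAA with bases of any kind between the units, in the promoters of many chaperone genes.

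To place such repeats relative to the start, promoters of the 4 class A and B genes with the largest heat shock differences are shown. That of DNAJA4 is added, a class A member whose probe set was dim and did not pass after heat shock. The sequences are the 250 bases before a RefSeq start in assembly GRCh38.p14, read 5′ to 3′ on the strand of the gene. Capitals mark every match to GAANNTTC or TTCNNGAA, the short motif of 2 facing units, where N is any base. Each of these is its own reverse complement, so both strands were covered.
DNAJB1, chr19:14518398-14518647, minus strand: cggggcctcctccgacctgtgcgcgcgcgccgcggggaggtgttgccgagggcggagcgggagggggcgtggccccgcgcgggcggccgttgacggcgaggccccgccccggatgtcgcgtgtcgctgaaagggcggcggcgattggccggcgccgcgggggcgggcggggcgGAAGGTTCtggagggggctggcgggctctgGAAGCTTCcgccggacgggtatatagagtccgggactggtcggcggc
DNAJB6, chr7:157336754-157337003, plus strand: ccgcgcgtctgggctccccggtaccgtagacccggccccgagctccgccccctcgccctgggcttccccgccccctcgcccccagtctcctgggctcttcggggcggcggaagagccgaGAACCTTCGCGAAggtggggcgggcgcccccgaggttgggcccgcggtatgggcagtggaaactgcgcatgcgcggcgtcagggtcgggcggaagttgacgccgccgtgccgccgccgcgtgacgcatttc
DNAJA1, chr9:33025023-33025272, plus strand: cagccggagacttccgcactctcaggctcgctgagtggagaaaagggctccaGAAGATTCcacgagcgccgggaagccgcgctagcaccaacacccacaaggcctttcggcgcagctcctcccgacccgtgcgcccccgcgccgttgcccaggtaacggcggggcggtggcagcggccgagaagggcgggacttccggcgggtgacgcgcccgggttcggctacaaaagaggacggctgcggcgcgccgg
DNAJB4, chr1:78004689-78004938, plus strand: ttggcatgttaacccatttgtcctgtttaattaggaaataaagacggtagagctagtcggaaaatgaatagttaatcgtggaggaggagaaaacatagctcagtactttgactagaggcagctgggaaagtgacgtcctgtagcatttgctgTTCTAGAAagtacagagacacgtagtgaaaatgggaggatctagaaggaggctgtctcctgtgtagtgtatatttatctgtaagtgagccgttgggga
DNAJA4, chr15:78264312-78264561, plus strand: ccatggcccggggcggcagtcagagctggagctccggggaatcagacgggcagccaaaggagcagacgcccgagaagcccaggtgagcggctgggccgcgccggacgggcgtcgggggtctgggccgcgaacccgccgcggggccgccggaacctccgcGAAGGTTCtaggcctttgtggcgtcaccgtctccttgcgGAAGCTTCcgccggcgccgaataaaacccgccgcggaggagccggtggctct

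DNAJB1 held the short motif 77 and 47 bases before this start. The RefSeq table lists 3 starts for DNAJB1, 3 for DNAJA4 and 2 for DNAJB4. For each of them the start shown is the one with the motif upstream, and the 250 bases before its other starts held 0 matches. The promoter of DNAJB2, the next class B gene by size of the heat shock difference, also held 0. Those of the other class A genes, DNAJA2 and DNAJA3, held 0 as well. Every promoter shown held a match, so the family is to be read from the counts below. The overlapping pair in DNAJB6 forms the long motif of 3 units, GAANNTTCNNGAA or its reverse complement TTCNNGAANNTTC, as GAACCTTCGCGAA at chr7:157336873-157336885 on the plus strand. The long motif of DNAJA1 lies just after the start, as GAACTTTCCAGAA at chr9:33025276-33025288 on the plus strand. The table matched 40 of the 44 genes with 52 promoters of 300 bases, 250 before and 50 after the start. DNAJC1, DNAJC5B, DNAJC22 and DNAJC24 were not matched. The short motif was present in 9 of the 52 promoters (17.3%), against 13.5% of all 35116 promoters in the table, and the long motif, which contains the short one, in 2 of 52 (3.85%), against 0.49%. Counted by gene, 8 of 40 members (20.0%) held the short motif, against 16.2% of 27305 genes. Of the 7 members that passed the test as higher after heat shock, 4 held it: DNAJA1, DNAJB1, DNAJB4 and DNAJB6. Of the 30 matched members that did not pass, 4 held it, and of the 3 matched members that fell, 0 did. A match is a description of the letters only, and binding was not measured.

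The values are log2 probe set levels after RMA, so 1 unit is a factor of 2 and levels of different genes cannot be ranked. The medians of the 12 arrays lay between 5.298 and 5.325, and replicates correlated between 0.9951 and 0.9985 across genes. The second heat shocked and wounded array stood apart, with an interquartile range of 3.98, against 4.13 to 4.24 on the other arrays. Calls that were lost without it are therefore named below. All 10 markers of A549 and lung epithelium were above the dim level of 4.60, the upper quartile of leukocyte and endothelial markers in control cells. Alveolar type II markers were above it for 4 of 7 and those of fibroblasts for 2 to 3 of 7. Markers of leukocytes were above it for 2 to 3 of 9 and of endothelium for 0 to 2 of 8. The level was set from these last 2 lists, so their low counts follow from it and do not show that such cells were absent. Of the members, 36 were above the dim level in every group. DNAJA4, DNAJB7, DNAJB8, DNAJC5B, DNAJC5G, DNAJC15, DNAJC18 and DNAJC28 were under it in every group. On such probe sets RMA compresses differences.

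Heat shock alone, compared with control, asked which co-chaperones a heat treatment moves in these cells. DNAJB1, the main inducible HSP40 of the cytosol and nucleus, was 3.95-fold higher, and DNAJB6, known for holding back the aggregation of polyglutamine proteins, was 2.48-fold higher. DNAJB4, DNAJA1 and DNAJB2 rose 1.92-fold, 1.92-fold and 1.62-fold. DNAJC7 and DNAJC3 of class C rose less, 1.46-fold and 1.20-fold. DNAJC7 is an adaptor of HSP70 and HSP90, and DNAJC3 a co-chaperone of the endoplasmic reticulum. In all, 11 of 44 members passed the test, or 25% of the family, against 12.9% of all genes. Of the 11, 7 were higher and 4 lower, against 4.93% of all genes higher and 7.92% lower. The test was limma's moderated test with Benjamini-Hochberg adjustment over all genes at 0.05, here and below. The median difference was -0.01 over the members and -0.03 over all genes. The heat shocked and control arrays did not overlap for 20 members (45.5%), against 31.3% of all genes. In bulk RNA, less RNA per cell and fewer cells of a kind cannot be told apart.

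**Figure D1:**
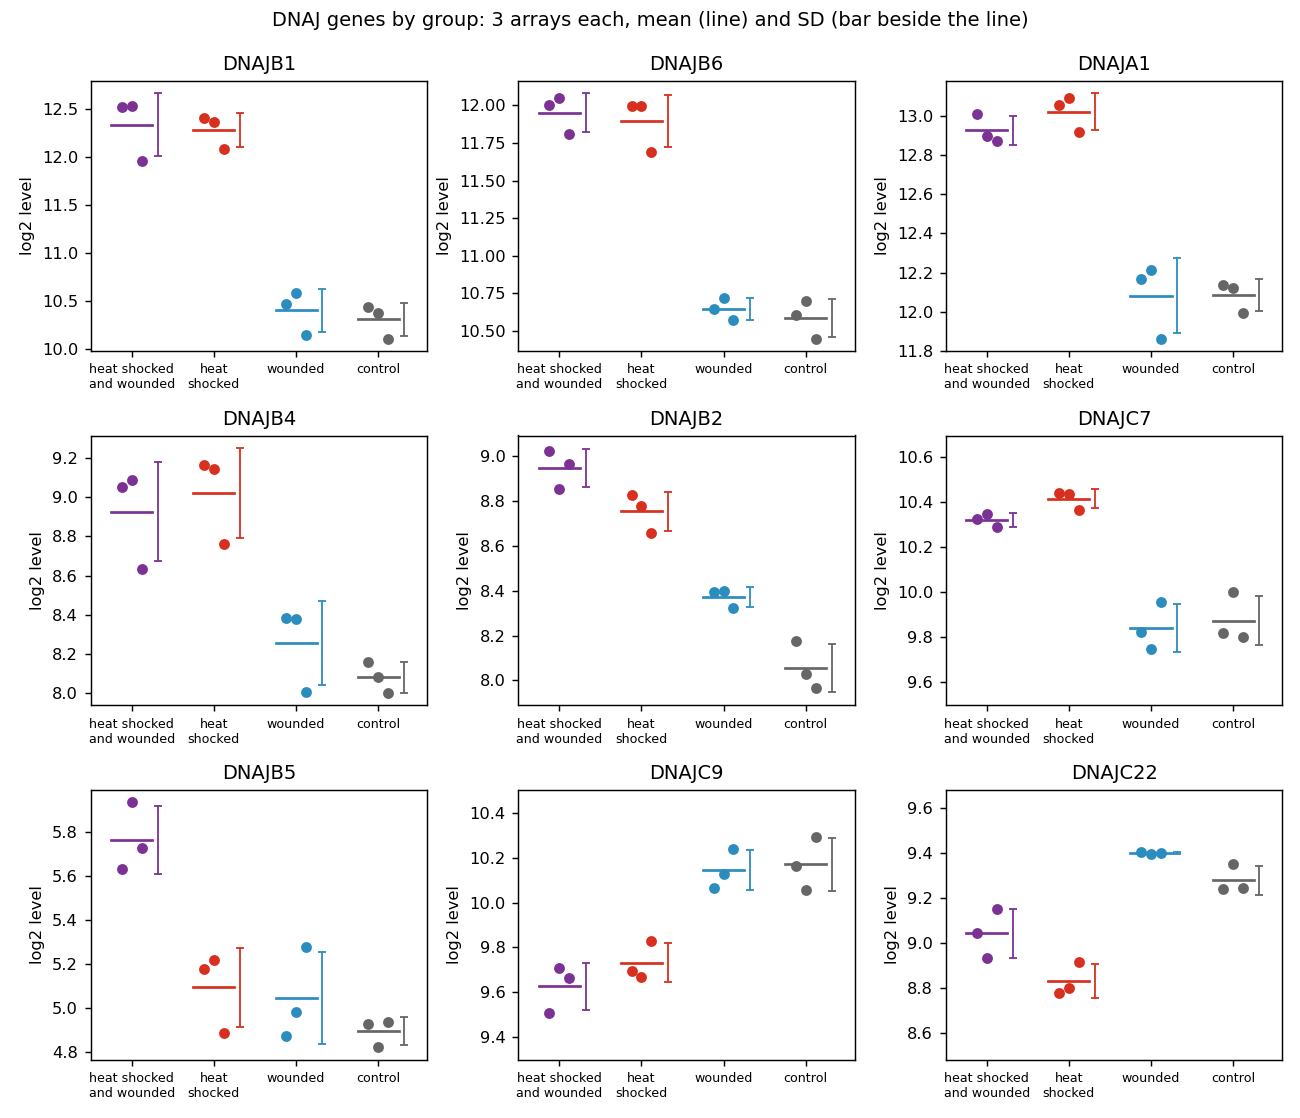
Log2 levels of 9 DNAJ genes in the heat shocked and wounded, heat shocked, wounded and control groups. Points are the 3 arrays of a group in replicate order, the line is their mean and the bar is the SD. In the panels of DNAJB1, DNAJB6, DNAJA1, DNAJB4, DNAJB2 and DNAJC7, every array of both heat shocked groups lies above every array of the other groups, while in that of DNAJB5 this holds for the heat shocked and wounded arrays alone. The vertical axes do not start at 0 and differ between panels.

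DNAJB1 read 12.41, 12.37 and 12.08 on the heat shocked arrays, against 10.44, 10.37 and 10.11 on the control arrays. The groups were far apart, and the third array was the lowest in each. The difference was 1.98 ± 0.16 (log2, SE; n = 3 each), with an adjusted p of 1.2e-05 in the limma fit. DNAJB6 read 11.998, 11.997 and 11.69 after heat shock, against 10.61, 10.70 and 10.45 in control cells, a difference of 1.31 ± 0.10 (adjusted p = 7.36e-06, limma). DNAJA1, a class A partner of HSP70 in the cytosol, read 13.06, 13.09 and 12.92, against 12.14, 12.12 and 11.99. It differed by 0.94 ± 0.09 (adjusted p = 5.62e-05, limma). DNAJB4, a cytosolic class B protein, read 9.17, 9.15 and 8.76, against 8.16, 8.08 and 7.999, and its groups did not overlap. Its difference was 0.94 ± 0.15 (adjusted p = 0.00124, limma), and its SD was 0.23 after heat shock and 0.08 in control cells.

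DNAJB2, which carries ubiquitin-interacting motifs and is best known from neurons, read 8.82, 8.78 and 8.66 after heat shock, against 8.17, 8.03 and 7.96. It was higher on all 3 arrays, by 0.70 ± 0.08 (adjusted p = 0.000101, limma). DNAJC7 read 10.44, 10.44 and 10.37, against 9.82, 10.00 and 9.80, a difference of 0.54 ± 0.07 (adjusted p = 0.000503, limma). DNAJC3 read 8.32, 8.31 and 8.39, against 8.17, 7.97 and 8.07. Its difference of 0.27 ± 0.08 passed narrowly, with an adjusted p of 0.0468 in the limma fit. It passed without the second or the third heat shocked and wounded array or the third wounded array, and without any other single array its adjusted p was 0.0524 to 0.170. With the S number in the labels of the samples, whose meaning is not stated, as a block, its adjusted p was 0.0519.

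All 4 members that fell after heat shock were of class C. DNAJC9, a histone co-chaperone, read 9.70, 9.67 and 9.83 on the heat shocked arrays, against 10.16, 10.05 and 10.29 in control cells. It fell by 0.44 ± 0.08 on the log2 scale (adjusted p = 0.00454, limma). DNAJC22, a membrane protein whose fly counterpart acts in endocytosis, read 8.78, 8.80 and 8.92, against 9.24, 9.35 and 9.25, and fell by 0.45 ± 0.07 (adjusted p = 0.0014, limma). Neither gene's groups overlapped. DNAJC17, a nuclear protein linked to splicing, read 6.36, 6.33 and 6.17, against 6.74, 6.69 and 6.55, and fell by 0.37 ± 0.09 (adjusted p = 0.0169, limma). Without the first or second control array or the third heat shocked array its adjusted p was 0.0600 to 0.0758. DNAJC18, an endoplasmic reticulum membrane protein, was dim throughout. It read 3.18, 3.67 and 3.78, against 4.45, 4.41 and 4.25, and fell by 0.83 ± 0.15 (adjusted p = 0.00296, limma).

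Several well-known members did not pass. The class A partner DNAJA2 differed by -0.03 ± 0.07 (95% interval -0.17 to 0.11), and DNAJB5 by 0.20 ± 0.12 (adjusted p = 0.345, limma). DNAJA4 read 3.48, 3.51 and 3.08 after heat shock, against 2.99, 2.79 and 2.91, under the dim level on all of them (difference 0.46 ± 0.16, adjusted p = 0.092, limma). DNAJB9, an endoplasmic reticulum protein induced by unfolded proteins in that compartment, read 9.02, 9.02 and 9.04, against 9.05, 9.0001 and 8.81. Its groups overlapped and the difference was 0.07 ± 0.11. DNAJB11, a co-chaperone of the same compartment, differed by 0.24 ± 0.08 (adjusted p = 0.0644, limma). The mitochondrial class A protein DNAJA3 read 9.14, 9.16 and 9.12, against 9.24, 9.27 and 9.23 (difference -0.11 ± 0.06, adjusted p = 0.284, limma). The ribosome-associated DNAJC2 read 9.97, 9.93 and 9.89, against 9.91, 10.00 and 9.86 (difference 0.00 ± 0.06).

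By class, 1 of 4 class A, 4 of 12 class B and 2 of 28 class C genes rose after heat shock, and 0, 0 and 4 fell, against 4.93% of all genes higher and 7.92% lower. The median difference was 0.21 in class A, 0.17 in class B and -0.03 in class C. Sorted by where the proteins act, 5 of the 8 cytosolic and nuclear partners of HSP70 in classes A and B rose and 0 fell, with a median of 0.82. They made up 5 of the 7 higher calls. Of the 8 genes of the endoplasmic reticulum, DNAJC3 rose and DNAJC18 fell. Of the 5 mitochondrial genes and the 5 genes of clathrin coats and vesicles, 0 passed. Of the 6 genes of the nucleus, RNA and ribosome, DNAJC9 and DNAJC17 fell. Of the 3 genes known mainly from testis, DNAJB7, DNAJB8 and DNAJB13, 0 passed. Among the 9 genes on no list, DNAJC7 rose and DNAJC22 fell. These differences between lists were not tested, and the lists were chosen with earlier results of these data known.

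**Figure D2:**
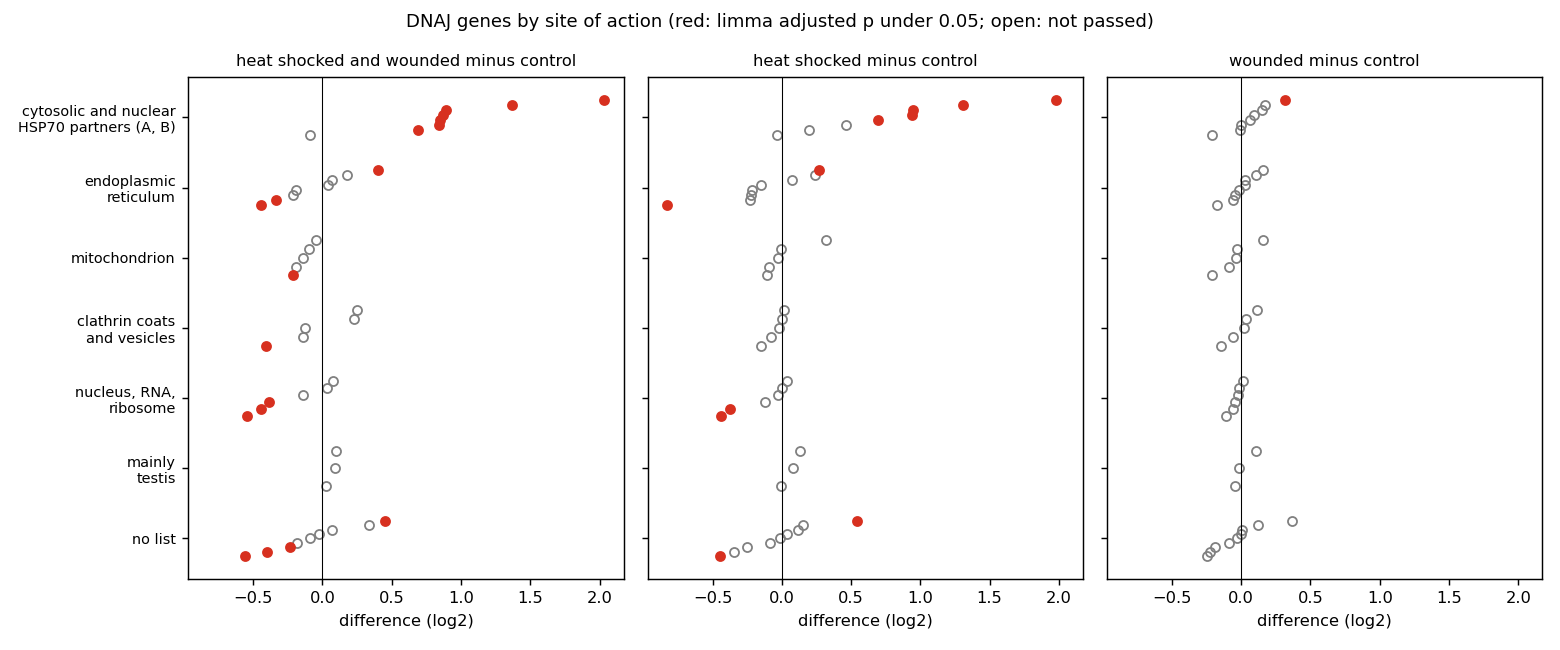
Differences from control (log2, horizontal axis) of the 44 DNAJ genes, grouped by site of action (rows), for the heat shocked and wounded, heat shocked and wounded-only groups, left to right. Filled red points passed the limma test at an adjusted p under 0.05, and open points did not. The cytosolic and nuclear HSP70 partners hold 7, 5 and 1 of the filled points on the right of 0. The lists were chosen with earlier results of these data known.

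Wounding alone, compared with control, asked whether the scratch itself moves these genes without heat. It called 1 member of 44 (2.27%), which was higher, against 3.57% of all genes, 2.27% higher and 1.31% lower. DNAJB2 read 8.39, 8.40 and 8.32 on the wounded arrays, against 8.17, 8.03 and 7.96 on the control arrays. It was 1.24-fold higher, by 0.32 ± 0.08 (adjusted p = 0.039, limma). The groups did not overlap. The call did not hold without any 1 of 7 arrays, namely all 3 wounded arrays, the second and the third control arrays, and the first and second heat shocked arrays (adjusted p 0.0532 to 0.157, limma). DNAJB1 read 10.47, 10.58 and 10.15 on the wounded arrays, overlapping the control arrays, with a difference of 0.10 ± 0.16 (95% interval -0.26 to 0.45). DNAJB6 read 10.65, 10.72 and 10.57 and differed by 0.06 ± 0.10 (interval -0.16 to 0.28). DNAJA1 read 12.17, 12.21 and 11.86 and differed by -0.00 ± 0.09 (interval -0.21 to 0.20). The intervals allow a change in either direction but not one of the size seen after heat. The differences of all members ran from -0.25 for DNAJC27 to 0.37 for DNAJC12, a co-chaperone tied to aromatic amino acid hydroxylases, whose adjusted p was 0.247 in the limma fit. The other probe set of DNAJC12 passed in a fit over all probe sets with 1 symbol, with 0.42 after wounding (adjusted p = 0.0371, limma) and 0.35 after both treatments (adjusted p = 0.0197, limma), each against control. DNAJA3 read 9.02, 9.11 and 8.97, below all 3 control arrays, with a difference of -0.21 ± 0.06 that did not pass (adjusted p = 0.0767, limma). A total of 5 members (11.4%) had an unadjusted p under 0.05, against 13.2% of all genes, and the groups did not overlap for 8 members (18.2%), against 21.9%.

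Heat shock followed by wounding was compared with the same control arrays, so the differences from control share them. It called 19 members (43.2%), against 23.1% of all genes. Of the 19, 9 were higher and 10 lower, against 8.66% of all genes higher and 14.4% lower. The 7 genes that passed as higher after heat shock alone were among the 9, and DNAJB5 and DNAJA4 joined them. DNAJB1 read 12.53, 12.53 and 11.96, and was 4.09-fold higher than in control cells (difference 2.03 ± 0.16). DNAJB6 read 12.002, 12.05 and 11.81, and was 2.58-fold higher. DNAJB2 read 9.02, 8.85 and 8.96 and was 1.85-fold higher. DNAJB4 read 9.05, 9.09 and 8.63 and was 1.80-fold higher, and DNAJA1 read 13.01, 12.90 and 12.87 and was 1.79-fold higher. DNAJC7 read 10.33, 10.35 and 10.29 and was 1.36-fold higher, and DNAJC3 read 8.47, 8.40 and 8.55 and was 1.32-fold higher. Over the family, the groups did not overlap for 26 members (59.1%), against 37.4% of all genes. None of these 7 overlapped control, and their adjusted p in the limma fit ran from 1.35e-06 for DNAJB6 to 0.00314 for DNAJC3.

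DNAJB5, a cytosolic class B protein close to DNAJB1 and DNAJB4 in its domains, read 5.63, 5.93 and 5.73 in cells that were heat shocked and wounded. It read 5.18, 5.22 and 4.88 after heat shock, 4.87, 4.98 and 5.28 after wounding, and 4.93, 4.82 and 4.94 in control cells. All 3 arrays of the combined treatment lay above all 9 others. The difference from control was 0.87 ± 0.12 or 1.83-fold (adjusted p = 0.000199, limma). DNAJA4 read 3.95, 3.63 and 3.17 in heat shocked and wounded cells, 2.69, 2.69 and 2.68 in wounded cells and 2.99, 2.79 and 2.91 in control cells. It was 1.61-fold higher than in control cells (0.69 ± 0.16, adjusted p = 0.00911, limma), on a probe set under the dim level in every group.

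The 10 genes that fell against control were DNAJA3, DNAJB14 and 8 of class C. DNAJC27, a Rab-like GTPase joined to a J domain, read 5.08, 4.74 and 5.28, against 5.68, 5.58 and 5.53, and fell by 0.56 ± 0.12 (adjusted p = 0.00581, limma). DNAJC9 read 9.51, 9.71 and 9.66 and fell by 0.54 ± 0.08. DNAJC17 read 6.23, 6.05 and 6.36 and fell by 0.45 ± 0.09. DNAJB14, an endoplasmic reticulum membrane protein, read 7.99, 7.85 and 7.80, against 8.25, 8.37 and 8.34, and fell by 0.44 ± 0.12. The groups of these 4 genes did not overlap. Without the second heat shocked and wounded array, DNAJC27 differed by -0.41, DNAJC9 by -0.58, DNAJC17 by -0.37 and DNAJB14 by -0.43. All 4 still passed, with adjusted p from 0.000903 to 0.0454 in the limma fit. The endosomal DNAJC13 fell by 0.41, DNAJC25 by 0.40, the diphthamide synthesis protein DNAJC24 by 0.39, the disulfide reductase DNAJC10 by 0.33, DNAJC22 by 0.23 and DNAJA3 by 0.21. DNAJA3 read 9.01, 9.03 and 9.06, against 9.24, 9.27 and 9.23. In the limma fit the adjusted p of these 6 ran from 0.00547 to 0.0295. Of the 19 calls, 15 held without any 1 array. DNAJA3 did not pass without the first heat shocked and wounded array or the first or second control array (adjusted p 0.0564 to 0.0611), nor DNAJB14 without the second control array (0.0569). DNAJC22 did not pass without any 1 control array or the first or second heat shocked and wounded array (0.0513 to 0.113). DNAJC24 did not pass without the first control array or the second heat shocked and wounded array (0.0549 to 0.0645).

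By class, 2 of 4 class A, 5 of 12 class B and 2 of 28 class C genes rose against control, and 1, 1 and 8 fell, against 8.66% of all genes higher and 14.4% lower. The median was 0.30 in class A, 0.14 in class B and -0.13 in class C, and -0.04 over all members, against -0.01 over all genes. Of the 8 cytosolic and nuclear partners of HSP70, 7 rose, with DNAJA2 (-0.09 ± 0.07) as the exception. In the endoplasmic reticulum list DNAJC3 rose while DNAJB14 and DNAJC10 fell. DNAJB9 read 9.05, 8.80 and 9.21, overlapping control. DNAJC9, DNAJC17 and DNAJC24 fell in the nucleus, RNA and ribosome list, whose DNAJC2 read 10.00, 9.89 and 9.99, a difference of 0.03 ± 0.06.

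**Figure D3:**
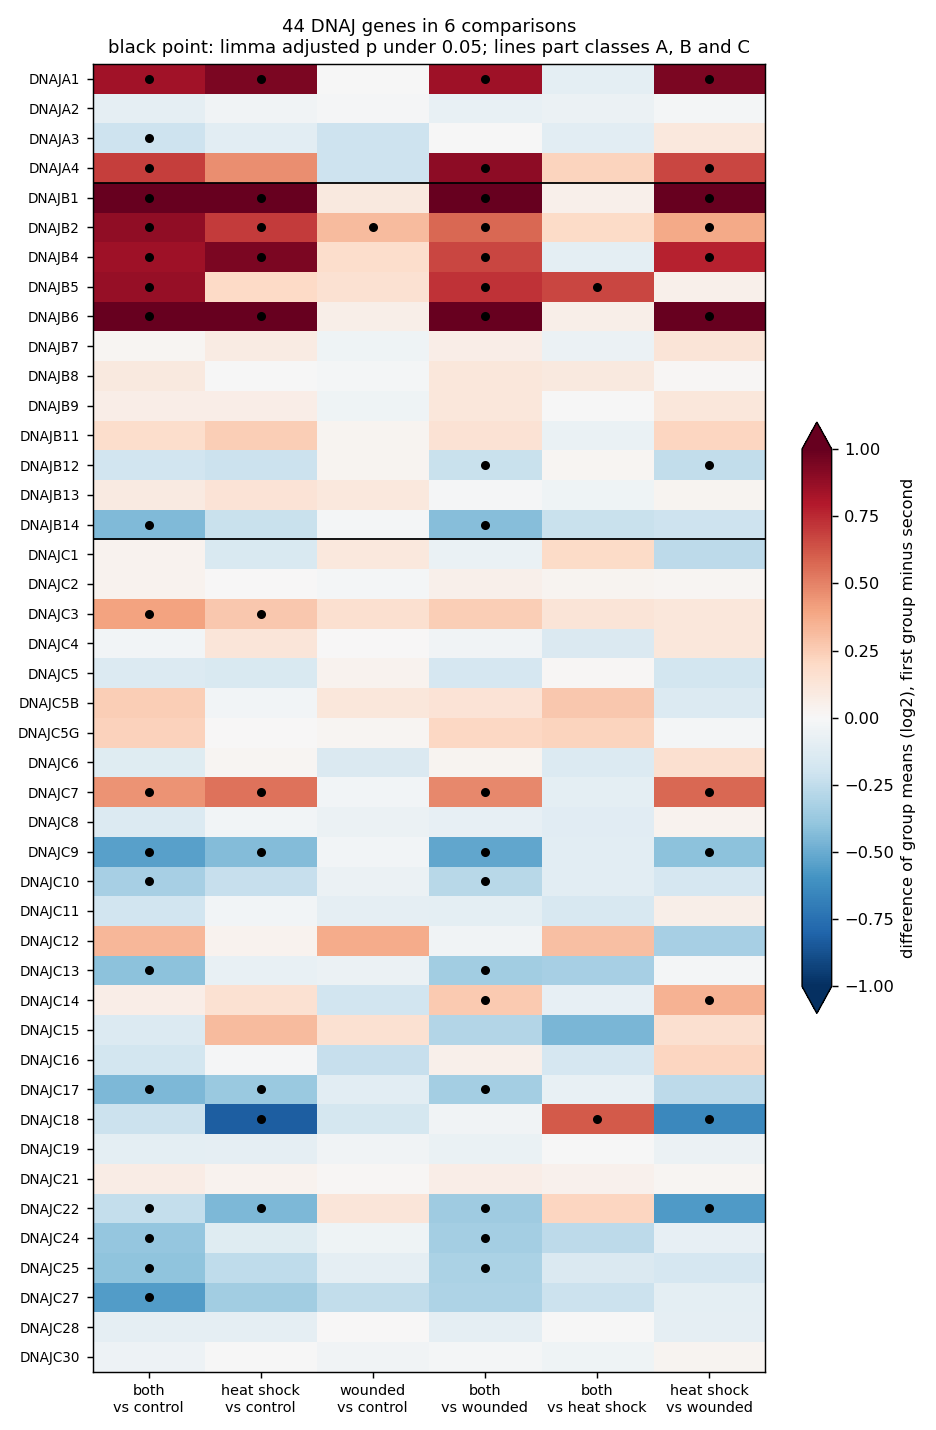
Differences of group means (log2, colour, clipped at -1 and 1) of the 44 DNAJ genes (rows, classes A, B and C parted by lines) in 6 comparisons (columns). Black points mark limma adjusted p under 0.05. The column of wounding against control holds 1 point, DNAJB2.

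Heat shock before wounding was also compared with wounding alone, which sets 2 wounded groups side by side and uses no control array in the difference. It called 18 members (40.9%), against 14.9% of all genes. Of the 18, 9 were higher and 9 lower, against 6.31% of all genes higher and 8.6% lower. The groups did not overlap for 23 members (52.3%), against 32.1% of all genes. DNAJB1 was 3.83-fold higher, by 1.94 ± 0.16, and DNAJB6 2.47-fold, by 1.31 ± 0.10. DNAJA4 (0.90 ± 0.16), DNAJA1 (0.85 ± 0.09), DNAJB5 (0.72 ± 0.12), DNAJB4 (0.67 ± 0.15), DNAJB2 (0.57 ± 0.08), DNAJC7 (0.48 ± 0.07) and DNAJC14 (0.26 ± 0.07) rose too. Adjusted p in the limma fit ran from 9.42e-06 for DNAJB6 to 0.0246 for DNAJC14. Of the genes that fell, DNAJC9 read 9.51, 9.71 and 9.66, against 10.07, 10.13 and 10.24 in wounded cells (-0.52 ± 0.08). DNAJB14 read 7.99, 7.85 and 7.80, against 8.43, 8.36 and 8.13 (-0.43 ± 0.12). DNAJC22 read 9.04, 8.94 and 9.15, against 9.40 on each of the 3 wounded arrays (-0.36 ± 0.07). DNAJC13 read 5.64, 5.42 and 5.48, against 5.98, 5.91 and 5.70 (-0.35 ± 0.09). These 4 pairs of groups did not overlap. DNAJC24, DNAJC17, DNAJC25, DNAJC10 and DNAJB12 fell by 0.34, 0.34, 0.31, 0.27 and 0.22.

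The calls of this comparison were uneven in their support. Those of DNAJA1, DNAJA4, DNAJB1, DNAJB2, DNAJB4, DNAJB5, DNAJB6, DNAJC7, DNAJC9 and DNAJC22, 10 of the 18, held without any 1 array. DNAJA4 was under the dim level in every group. With its second brightest probe set it differed by 0.22 and did not pass (adjusted p = 0.247, limma). Without the first or second wounded array or the second heat shocked and wounded array, 11 members were called in each case. Of all genes, 1649, 1928 and 1838 were then called, against 2704 with all arrays. DNAJC13 did not pass without any 1 of those 3 arrays (adjusted p 0.0722 to 0.0946, limma), and DNAJB14 also not without the third heat shocked and wounded array (0.0707 to 0.113). DNAJC17 did not pass without the first or the third wounded array or the first or second heat shocked and wounded array (0.0560 to 0.0934), and DNAJC14 not without the second or the third wounded array or any 1 heat shocked and wounded array (0.0532 to 0.0897). DNAJC24, DNAJC10, DNAJC25 and DNAJB12 did not pass in 6, 6, 7 and 10 of the 12 fits that left out 1 array, with adjusted p up to 0.165. For all 4 these included the first and second wounded arrays. For DNAJC24 the others were the third wounded, the first heat shocked and the second and the third heat shocked and wounded arrays. For DNAJC10 they were the first control, the first heat shocked and the first and second heat shocked and wounded arrays. For DNAJC25 they were all 3 control arrays and the first and the third heat shocked and wounded arrays. DNAJB12 passed without the third heat shocked array or the third heat shocked and wounded array. Normalizing the arrays again gave 10 higher and 5 lower with quantiles and 10 higher and 4 lower with cyclic loess, in place of 9 and 9. Of all genes, 2574 and 2488 were called with these normalizations.

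Heat shock alone, compared with wounding alone, called 12 members (27.3%), against 10.5% of all genes. Of the 12, 8 were higher and 4 lower, against 4.51% of all genes higher and 6.01% lower. The groups did not overlap for 19 members (43.2%), against 28.3% of all genes. DNAJB1, DNAJB6, DNAJA1 and DNAJB4 were higher by 1.88, 1.25, 0.94 and 0.77, DNAJA4 by 0.67, DNAJC7 by 0.57, DNAJB2 by 0.38 and DNAJC14 by 0.35. DNAJC18 read 3.18, 3.67 and 3.78, against 4.32, 4.01 and 4.24 in wounded cells, and fell by 0.65. DNAJC22 fell by 0.57, DNAJC9 by 0.41 and DNAJB12, another endoplasmic reticulum membrane protein, by 0.24. DNAJB12 read 8.51, 8.50 and 8.56, against 8.73, 8.77 and 8.81. The adjusted p of the 12 ran from 1.21e-05 to 0.0382 in the limma fit. DNAJA4 did not pass without the first or second heat shocked array or any 1 wounded array (adjusted p 0.0608 to 0.0858). DNAJC18 did not pass without the first wounded array (0.0616), and DNAJB12 did not pass without any 1 heat shocked or wounded array or the first or second control array (0.0539 to 0.117).

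Adding the wound to the heat shock was read from the heat shocked and wounded group against heat shock alone. The time from heat shock to lysis is not given for the latter. An effect of the wound and one of time since heat shock therefore cannot be told apart here. It called 2 members (4.55%), against 4.3% of all genes, a share near the background. Both were higher, against 2.71% of all genes higher and 1.58% lower. The groups did not overlap for 13 members (29.5%), against 19.9% of all genes. DNAJB5 was 1.59-fold higher, with 5.63, 5.93 and 5.73, against 5.18, 5.22 and 4.88 after heat shock alone (0.67 ± 0.12, adjusted p = 0.00643, limma). This call held without any 1 array, but 0 of 2 other probe sets of DNAJB5 passed here. With the second brightest in place of the brightest, DNAJB5 differed by 0.46 and did not pass (adjusted p = 0.0553, limma). DNAJC18, under the dim level, read 4.37, 4.06 and 4.04, against 3.18, 3.67 and 3.78 (0.61 ± 0.15, adjusted p = 0.0347, limma). It did not pass without the first or second array of any of the control, heat shocked, or heat shocked and wounded groups (adjusted p 0.0502 to 0.101). The count was then 1, except that without the first heat shocked and wounded array another member passed as lower. DNAJB1, DNAJB6, DNAJA1 and DNAJB4 differed by 0.05 ± 0.16, 0.06 ± 0.10, -0.10 ± 0.09 and -0.10 ± 0.15, with 95% intervals of -0.30 to 0.41, -0.16 to 0.27, -0.30 to 0.11 and -0.41 to 0.22. DNAJB2 differed by 0.19 ± 0.08 (adjusted p = 0.2, limma).

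The interaction asked whether the heat shock difference was of another size in wounded cells than in cells that were not wounded. Here too the time from heat shock to lysis may differ between the heat shocked groups. In the limma fit 0 of 44 members passed, against 0.00552% or 1 gene of all, and 2 members (4.55%) had an unadjusted p under 0.05, against 7.18% of all genes. These were DNAJC18, with an interaction of 0.79 ± 0.21 (limma adjusted p = 0.516), and DNAJB5, with 0.52 ± 0.17 (limma adjusted p = 0.608). DNAJB5 therefore passed against heat shock alone and not as an interaction. DNAJB1 gave -0.04 ± 0.23 (95% interval -0.55 to 0.46), DNAJB6 -0.00 ± 0.14 (interval -0.31 to 0.30), DNAJA1 -0.09 ± 0.13 (interval -0.38 to 0.20) and DNAJB4 -0.27 ± 0.21 (interval -0.72 to 0.17).

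**Figure D4:**
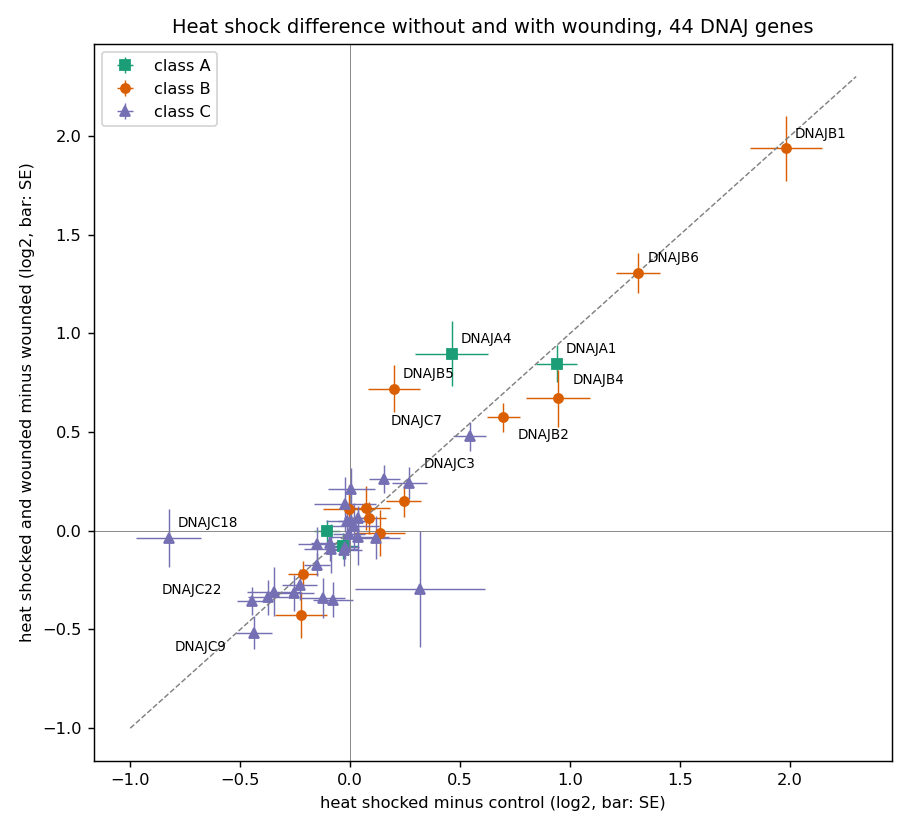
Heat shocked and wounded minus wounded (vertical axis) against heat shocked minus control (horizontal axis), both log2, for the 44 DNAJ genes. Bars are the SE of each difference, colours and shapes are classes, and the dashed line marks equal differences. DNAJB1 (1.98 and 1.94) and DNAJB6 (1.31 and 1.31) lie on the line, DNAJB5 (0.20 and 0.72) above it, and DNAJC18 (-0.83 and -0.04) far to the left.

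Other probe sets of a gene gave a second reading for 36 of the 44 members. After heat shock, the other probe sets were also higher for DNAJB1 (2 of 2, 2.00 to 2.10), DNAJB6 (4 of 4, 1.47 to 1.66), DNAJA1 (4 of 4, 1.08 to 1.18) and DNAJB4 (2 of 2, 1.00 to 1.03). For DNAJB2, 2 of 5 were higher and the range was -0.17 to 0.83. The mean of all its probe sets differed from control by 0.38 after heat shock, by 0.55 after heat shock and wounding and by 0.17 after wounding, where the call ended (adjusted p = 0.184, limma). For DNAJC9, 1 of 4 others was lower (-0.51 to 0.16). With the mean of its probe sets, DNAJC9 differed by -0.22 after heat shock against control (adjusted p = 0.063, limma) and by -0.15 against wounding (0.229). For both treatments against wounding it differed by -0.17 (0.128), so these 3 calls did not hold. That mean also ended calls of DNAJC17 (heat shock against control, -0.34, 0.0641), DNAJA4 (heat shock against wounding, 0.36, 0.0763) and DNAJC18 (both against heat shock, 0.32, 0.114). It ended both calls of DNAJC24 and both of DNAJB12, with adjusted p of 0.0831 to 0.346. After heat shock, 0 of 1 other probe sets passed for DNAJC17 (-0.30) and 0 of 1 for DNAJC18 (-0.17). For DNAJC3, 0 of 2 passed (0.25 to 0.27). For DNAJB5, 1 of 2 others passed against control in heat shocked and wounded cells. With the second brightest probe set in place of the brightest, DNAJB5 differed there by 0.36 (adjusted p = 0.0526, limma) and DNAJA4 by 0.22 (adjusted p = 0.209, limma). It also ended there the calls of DNAJC10 (-0.24, 0.0808), DNAJC17 (-0.39, 0.0802), DNAJC24 (-0.58, 0.0712) and DNAJC25 (-0.28, 0.118). DNAJC22 kept its single probe set and its difference of -0.23 in that fit. Its call also ended (adjusted p = 0.0528, limma), which is no reading of another probe set. Other probe sets passed there as lower for DNAJB14 (2 of 2), DNAJA3 (1 of 2), DNAJC10 (3 of 6) and DNAJC27 (1 of 3, -0.77 to -0.09). Of the called members, DNAJC7, DNAJC13 and DNAJC22 had a single probe set. No other probe set of a called member passed in the opposite direction. The probe set names mark 8 members read through an _s_at and 4 through an _x_at probe set, types that may also read related sequences. Among the called members these are DNAJA1, DNAJA3, DNAJB6, DNAJB12, DNAJC13 and DNAJC24 (_s_at), and DNAJB14, DNAJC10 and DNAJC22 (_x_at).

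The proteins that DNAJ co-chaperones serve were read from lists of their own. Of 15 HSP70 genes, 6 were higher and 2 lower after heat shock, 0 passed after wounding, and 7 were higher and 2 lower after both, each against control. Of all genes, 4.93% were higher and 7.92% lower after heat shock, 3.57% passed after wounding, and 8.66% were higher and 14.4% lower after both. HSPA6, a strictly inducible HSP70, differed by 5.79 ± 0.26 after heat shock, HSPA4L by 3.09 ± 0.10, HSPA1B by 2.32 ± 0.20 and HSPA1L by 2.10 ± 0.25. HSPA2 fell by 0.92 ± 0.08 and HSPA14 by 0.25 ± 0.06 after heat shock, and by 0.97 and 0.41 after both. HSPA6 and HSPA1B have near-identical relatives that their probes may also read. HSPA8, the constitutive HSP70 of the cytosol, differed by 0.09 ± 0.06 (adjusted p = 0.434, limma). Of 12 nucleotide exchange factors and regulators, 3 rose and 1 fell after heat shock, led by BAG3 (2.74 ± 0.11) and STIP1 (0.92 ± 0.06). After wounding BAG2 fell by 0.29 and 0 rose. After both, 4 rose and 2 fell. Of GAK, HSCB and SEC63, J-domain genes with other names, 0 passed after heat shock or wounding alone, and SEC63 fell by 0.22 after both (adjusted p = 0.038, limma).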

How the data were processed

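RNA of 12 A549 samples was measured on Affymetrix PrimeView arrays from 100 ng each; per the labels, a 3' IVT Express kit was used. The submitters' processing notes name RMA and Affymetrix Expression Console, without versions, for the log2 levels that the authors deposited. RMA corrects background, sets all arrays to 1 distribution and summarises probes, so a change shared by all genes would be removed. Of 49293 probe sets, 44988 had 1 gene symbol and gave 18132 genes. Groups came from the labels.

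All 12 arrays and all genes entered a single fit of group means with limma 3.58.1 in R 4.3.3 (8 residual degrees of freedom), with p-values adjusted by Benjamini-Hochberg within each of 7 comparisons. On simulated data it recovered 37, 49 and 50 of 50 genes changed by 0.5, 1 and 2 for heat shock against control (18132 genes), and 4.64% of calls were false. Each called member is named. Values per array are given for the largest changes and for 8 fixed genes. The number of arrays limits precision. Members, lists and roles were chosen with earlier results of these data known. Alternatives varied the normalization, probe set, filter, variance model, blocks, threshold and arrays. Promoter sequences are from RefSeq, assembly GRCh38.p14. HSPA1A was not analysed here.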

Additional observations from a re-analysis of the deposited data

How the results depend on the processing

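The 63 calls gave 1374 values under an alternative, of which 1215 still passed, 159 did not and 0 turned direction. Of the 159, 95 were among the 756 values from fits that left out 1 array. Leaving out 1 array at a time gave 9 to 13 called members for heat shock against control, 0 to 1 for wounding, 16 to 20 for both treatments against control, 11 to 18 for both against wounding, 1 to 3 for both against heat shock, 9 to 13 for heat shock against wounding and 0 to 0 for the interaction. Of all genes, these fits called 1438 to 2594 for heat shock, 306 to 722 for wounding and 3088 to 4400 for both against control. They called 1649 to 2936 for both against wounding, and 498 to 790 for both against heat shock. For heat shock against wounding they called 1182 to 2174, and for the interaction 1 to 2. Without the second heat shocked and wounded array the counts of members in the same order were 13, 1, 17, 11, 1, 13 and 0. Over all genes they were then 2594, 722, 3374, 1838, 498, 2174 and 1. For both against heat shock, 1 member was called after quantile normalization again, cyclic loess, genes above the median only, the groups of the comparison only and the replicate block, and 0 with the second brightest probe set. Of the genes tested, these settings called 784, 782, 989, 300, 817 and 479 there, in that order. The 1 member called among genes above the median was not among the 2 called with all genes tested. For wounding, 2 were called with genes above the median only, with a variance trend and robust fit, with the replicate block and with the S number of the labels as a block, and 0 with its own groups only and with a change of at least 0.5 required. Of the genes tested, these settings called 809, 866, 639, 728, 653 and 315 after wounding, in that order. With the mean of all probe sets, or the second brightest, 1 member was called after wounding and it was not DNAJB2. Over all genes, 574 and 352 were called with them. For both against wounding, the groups of the comparison alone gave 11, and 1663 of all genes. Requiring 0.5 gave 7 for heat shock, 9 for both against control and 8 for both against wounding. Of all genes it gave 687, 1483 and 782. Apart from the construction of each alternative, the cause was not tested. Cyclic loess moved the share of higher calls over all genes from 38.4% to 49.6% for heat shock. For both against control that share moved from 37.6% to 50.1%. With cyclic loess the splits of members were 8 higher and 4 lower for heat shock and 10 and 8 for both against control. Replicate numbers recur across groups. Of 18 same-numbered pairs 6 correlated above 0.1 (range -0.19 to 0.23), and 8 of 12 arrays correlated best with their own number. These values do not settle whether the numbers pair the arrays. The main fit left the numbers out, and a fit with them as a block was an alternative. With the replicate block, 11, 2, 22, 17, 1, 13 and 0 members were called in the order above, and DNAJC3 (heat shock against control, adjusted p = 0.0608), DNAJC10 (both against wounding, 0.0541) and DNAJC18 (both against heat shock, 0.0641) lost their calls. Over all genes the replicate block called 2370, 639, 4230, 2728, 817, 1952 and 1, in the same order. Dim probe sets limit DNAJA4 and DNAJC18.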

Other observations

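The third array was the lowest of its group in every group for 6 of 44 members (13.6%), against 3.74% of all genes. It was the highest in every group for 2 of 44, against 355 of all 18132 genes. DNAJB1, DNAJB4, DNAJB6 and DNAJA1 were among the 6. The labels give the third samples another S number than the first and second, with no meaning stated. Within the first and second arrays, DNAJB1 differed between heat shocked and control cells by 1.98, and on the third arrays by 1.97. DNAJB6 differed by 1.34 and 1.24, DNAJA1 by 0.95 and 0.92, and DNAJB4 by 1.04 and 0.76. DNAJB5 differed between heat shocked and wounded cells and wounded cells by 0.85 on the first and second arrays and by 0.45 on the third. The part of the S number in these values was not tested.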
